A study of Mus musculus with 36 samples.

Results

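This section describes AP sites of the brain of old mice. An AP (abasic) site is a position where the base has been lost from the sugar-phosphate backbone of DNA. Such sites arise by spontaneous loss of purines and as intermediates of base excision repair, in which a DNA glycosylase removes a damaged base and the nuclease APE1 then cuts the strand. Neurons no longer divide, so their lesions are met by repair without replication, and brain DNA is therefore often examined for its load of oxidised and missing bases.

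The brain libraries were the 2 AP libraries of brain among 12 AP libraries of 6 tissues, and were chosen by their tissue label. The other 10 libraries, 2 for each tissue, came from sperm, liver, heart, bone marrow and PBMCs (mononuclear cells of peripheral blood). All came from male C57BL/6J mice of 24 months with no treatment or mutation named, and the sample descriptions state that 2 mice supplied every organ without saying which number belongs to which mouse. Sperm DNA was purified with a kit of its own, whereas brain shared its kit with the remaining tissues. AP sites were mapped with SSiNGLe-AP, which lists single nucleotides with their strand. Single-strand breaks (SSBs) of the same samples were mapped with SSiNGLe. AP profiles hold no RNA, so the tissue labels could not be checked against the expression of marker genes.

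Brain held 767089 positions in the first library and 712393 in the second, together 1479482 of 8824020 AP positions. This corresponds to 282 and 262 positions per Mb of the mapped span. The other AP libraries held between 460719 and 963258 positions, so both brain libraries lay within that range. Nearly every brain position carried a count of 1, and a count above 1 was found at 0.340% and 0.400% of the positions. Each position was therefore counted once. Of the 10 other libraries, the first liver library stood furthest from the rest, with 0.929% of positions above 1.

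The sequence around the brain positions was read within RefSeq promoter windows of 300 bases (GRCm38.p6), which held 5855 and 5334 brain positions. In these windows 8 nucleotides listed in both brain libraries are reported with their surroundings, and none of the 8 was listed in any of the 10 other libraries. This was the usual case, since 1654 of all 1889 nucleotides shared by both brain libraries were in no other AP library. The 8 are examples, not a full list, of nucleotides seen repeatedly in brain where sequence could be read. Each is given from 10 bases before to 10 bases after, on the strand on which it was listed, with the listed nucleotide in capitals and the gene whose promoter window holds it.
Gm17762, chr2:18027265-18027285, minus strand: gatatttcccAgcagtgtaag
Luzp1, chr4:136469522-136469542, plus strand: gcaccctcccAacgtctctga
Zfp790, chr7:29816055-29816075, plus strand: taaggaggctGttccgaattc
Gm36847, chr7:105482574-105482594, minus strand: gcctccgcccAgcgttggggc
Gm39199, chr8:76445912-76445932, minus strand: cccatttgccAagccttgtct
Flt4, chr11:49609519-49609539, plus strand: taacgtacgcAaagtgggcgc
Gm36709, chr11:108379008-108379028, minus strand: atggcggccgGgttgatagtt
Prss27, chr17:24038257-24038277, plus strand: agcttctgccAcctctgacca

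All 8 listed nucleotides were purines (adenine or guanine), and in all 8 the base located 2 before was cytosine or guanine. The same pattern held across all brain positions in promoters. Adenine was listed at 38.2% and 36.3% of them and guanine at 35.6% and 35.9%, against 23.3% and 26.7% in the promoter windows themselves. Cytosine was listed at 16.9% and 17.0%, and thymine at 9.33% and 10.8%. Purines thus made up 73.7% and 72.2% of the listed nucleotides in brain and 71.1% to 76.6% in the 10 other libraries.

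The strongest feature lay 2 bases before the listed nucleotide. Cytosine or guanine stood there in 90.8% and 88.2% of brain positions, whereas adenine stood there in 3.51% and 4.63%. The commonest run of 3 bases ending at the listed nucleotide was CCA, at 12.02% of brain promoter positions, which is 5.90 times its share of the promoter sequence on both strands. It was followed by GCA at 6.27% and CGG at 6.02%. The runs AAC and AAT were found at 0 brain positions, although they make up 1.21% and 1.24% of promoter sequence. In the other libraries CCA held 9.67% to 12.7%.

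Brain did not separate from the other tissues in the listed base. For cytosine, the base with the smallest p, the brain mean was 1.10 percentage points higher than the mean of the other libraries. Both brain libraries overlapped the range of 14.6% to 17.2% of the others (two-sided exact permutation test over the 66 choices of 2 libraries, p = 0.106, adjusted p = 0.985). Adenine was lower by 1.62 percentage points (exact permutation p = 0.212, adjusted p = 0.985). Leaving out liver gave an unadjusted exact permutation p of 0.0444 for cytosine, which did not pass after adjustment. SSB positions of brain had another pattern: cytosine peaked 1 base before the listed nucleotide, at 56.9% and 54.6%, and adenine at the listed nucleotide was 5.74% and 4.81%. Whether the listed nucleotide is the abasic position itself or its neighbour is not given in the sources used here.

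**Figure D1:**
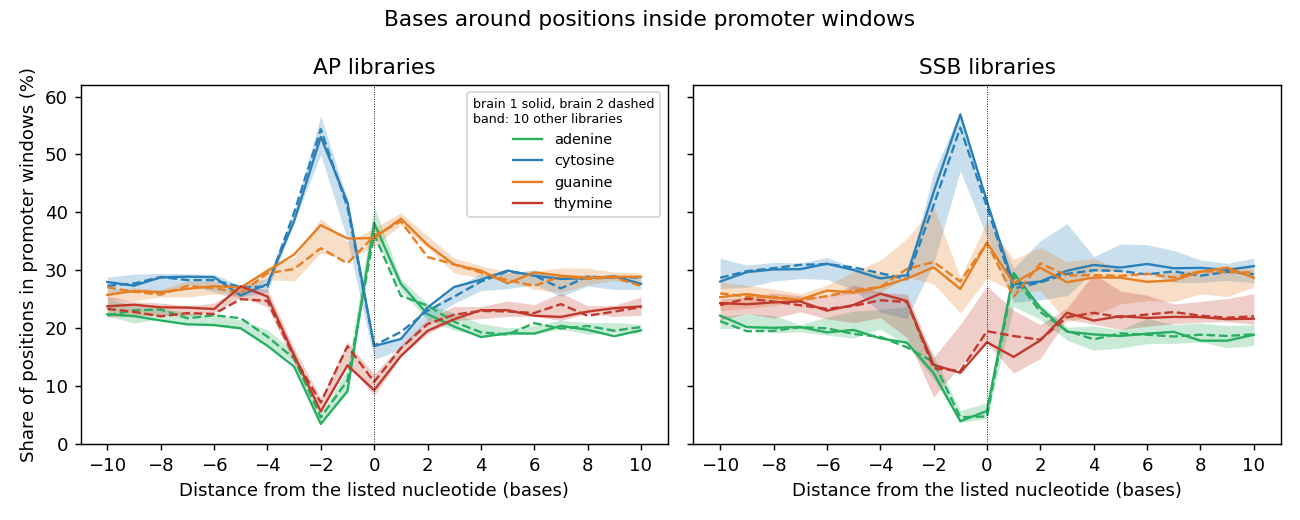
Share of positions inside promoter windows (y axis, %) with each base at distances from 10 bases before to 10 bases after the listed nucleotide (x axis), for AP libraries (left) and SSB libraries (right). Solid and dashed lines are brain libraries 1 and 2 and bands span the 10 other libraries; in the AP libraries cytosine reached 53.0% and 54.4% in brain at 2 bases before, inside the band.

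Single promoters carried few brain positions. Of 21237 promoter windows of protein-coding genes, 68.9% had 0 brain positions in both libraries together and 1.38% had 3 or more. The 3 genes with most brain positions in a window, chosen by these values, are shown with every nucleotide listed in brain on either strand in capitals and the sequence on the gene's strand.
Sp110, chr1:85598761-85599060, minus strand: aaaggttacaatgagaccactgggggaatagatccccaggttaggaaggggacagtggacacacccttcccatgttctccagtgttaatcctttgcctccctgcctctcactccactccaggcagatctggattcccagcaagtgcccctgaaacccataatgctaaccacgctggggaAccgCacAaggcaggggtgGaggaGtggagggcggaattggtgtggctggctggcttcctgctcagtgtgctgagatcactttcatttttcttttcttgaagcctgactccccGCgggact
Gstcd, chr3:133091776-133092075, minus strand: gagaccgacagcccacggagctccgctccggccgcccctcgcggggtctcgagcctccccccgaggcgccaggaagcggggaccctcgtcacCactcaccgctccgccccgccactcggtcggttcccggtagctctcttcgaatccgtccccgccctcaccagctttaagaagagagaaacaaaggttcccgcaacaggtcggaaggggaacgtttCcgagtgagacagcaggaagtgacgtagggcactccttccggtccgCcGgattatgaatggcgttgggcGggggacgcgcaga
4930563E22Rik, chr11:72214888-72215187, plus strand: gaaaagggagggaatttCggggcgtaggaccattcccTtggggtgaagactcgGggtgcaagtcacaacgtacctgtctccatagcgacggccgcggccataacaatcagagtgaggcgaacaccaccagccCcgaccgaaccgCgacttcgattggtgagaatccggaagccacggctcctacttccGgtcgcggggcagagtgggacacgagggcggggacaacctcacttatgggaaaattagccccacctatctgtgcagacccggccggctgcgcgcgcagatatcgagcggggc

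The Sp110 window held 4 and 3 brain positions, and each of the 10 other libraries held between 1 and 7. Sp110 encodes a nuclear body protein and lies in an array of related genes, so reads may be shared with near-identical copies. The Gstcd window held 3 brain positions in each library at 5 different nucleotides, against 1 position in the 10 other libraries together. Gstcd carries a glutathione S-transferase C-terminal domain. The window of 4930563E22Rik held 2 and 4 brain positions, against 4 in the 10 others together. Since these windows were picked for their brain counts, the differences are a description.

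Brain AP positions lay more often in genes and near their ends than the length of these features would give. The mapped span runs from the first base of each chromosome to its highest listed position. Gaps and sequence where reads cannot be placed were not taken out, so the ratios below are not corrected for mappability. RefSeq genes of any type cover 45.7% of the mapped span and held 61.8% and 61.4% of brain positions. Protein-coding genes held 53.0% and 52.6%, on 37.9% of the span. The density fell with gene length. It was 2.17 times the genome average in the 7925 protein-coding genes under 10 kb, 1.58 times in those of 10 to 50 kb, 1.42 times in those of 50 to 100 kb, 1.38 times in those of 100 to 500 kb and 1.07 times in the 226 genes over 500 kb. Windows of 1 kb to each side of gene starts held 2.48% and 2.38% of brain positions, 1.99 times their share of the span. Windows around gene ends held 2.24% and 2.17%, which is 1.79 times, and promoter windows 0.763% and 0.749%, which is 2.27 times.

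Across windows of 100 kb the same order was seen. Windows that overlap 0 protein-coding genes held 24.7% and 25.3% of brain positions, 0.656 times their share of the span. Windows with 6 or more such genes held 3.61% and 3.45%, 1.68 times their share. The density on chromosome 11 was 1.33 times the average. Chromosome X, present in 1 copy in male cells, held 1.63% and 1.70% of brain positions on 6.28% of the span, which is 0.265 times the average. The part of copy number in this low density was not tested. Chromosome Y held 0.111% and 0.118%.

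None of these shares set brain apart. Genes under 10 kb held 2.63% and 2.53% in brain and 2.15% to 2.77% in the other libraries (difference of means 0.0892 percentage points, exact permutation p = 0.561). Genes over 500 kb, many of which are neuronal, held 7.39% and 7.56% in brain and 7.004% to 8.05% elsewhere (difference -0.0548 percentage points, exact permutation p = 0.818). For chromosome 8, the chromosome with the smallest p, brain had 5.53% and 5.52% against 5.40% to 5.54% (exact permutation p = 0.106). Over all 49 single values tested, the smallest adjusted p was 0.985 by the exact permutation test. Both brain libraries lay within the range of the 10 others for 47 of the 49. The exceptions were adenine at the listed nucleotide and the share of positions with a neighbour on the same strand within 100 bases, where 1 brain library lay just below the range. The smallest p that 66 choices allow is 0.0152, so that a difference in a single value alone could not have passed the adjustment.

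The spread between libraries exceeded the difference between brain and the rest. The first liver library and the first bone marrow library held the lowest and the highest share in genes under 10 kb, 2.15% and 2.77%. The density in the promoter windows of highest GC content relative to those of lowest was 0.946 in that liver library and 1.86 in that bone marrow library, and 1.74 and 1.54 in the brain libraries. The part of this base composition lean in the shares was not tested.

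**Figure D2:**
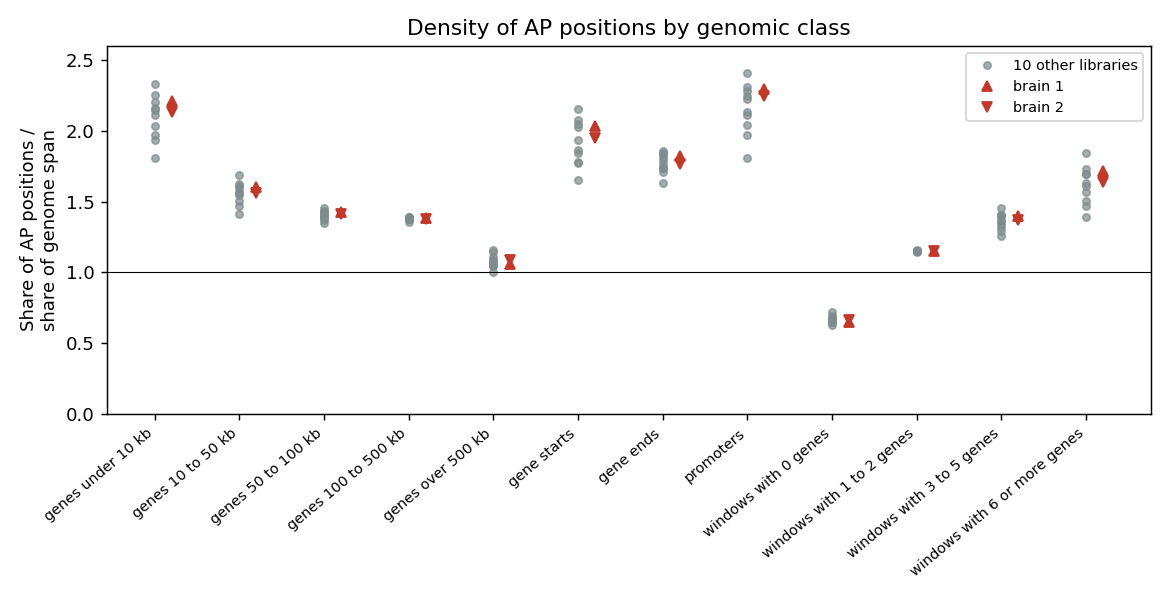
Density of AP positions (share of positions divided by share of the mapped span, y axis) by gene length class, gene ends and gene density of 100 kb windows (x axis). Grey points are the 10 other libraries and red triangles the 2 brain libraries; brain lies within the grey points in every class, with a mean of 2.17 in genes under 10 kb and 0.656 in windows without protein-coding genes.

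The strand of the positions relative to genes was examined next, since transcription-coupled repair removes lesions preferentially from the transcribed strand of active genes. The strand was known for 17491 protein-coding genes, which held 313292 and 289007 brain positions that could be assigned to 1 strand. Of these, 50.6% and 50.3% were listed on the gene's own strand (the coding strand). Whether the listed strand is that of the lesion or its complement is not given in the sources used here, which applies to every strand share and to the listed bases. The other libraries had 49.1% to 51.0%, and the brain mean differed by 0.0944 percentage points (exact permutation p = 0.848). By length, the brain mean ranged from 49.3% in genes under 10 kb to 51.0% in genes over 500 kb. All AP libraries leaned slightly to the plus strand of the genome, brain by 51.0% and 50.8%. With genes of each strand at equal weight, the brain shares were 50.6% and 50.2%. For SSBs of the same brain samples the share on the gene's strand was 53.1% and 53.2%.

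Per gene, 0 of 3642 genes with a mean of at least 20 positions passed the test of strand balance (0%, edgeR, adjusted p under 0.05), and 176 had an unadjusted p under 0.05 (4.83%). The smallest p was found for Atp8a1, a phospholipid flippase. Of its brain positions 62.4% and 63.6% lay on the gene's strand, against 43.1% to 58.2% in the others. Both brain libraries thus lay above all others, and the own-to-opposite ratio differed by 0.87 on the log2 scale (SE 0.24, edgeR adjusted p = 0.812). Since Atp8a1 was picked for the smallest p of 3642 genes, nothing is read from this lack of overlap. The share of all these genes without overlap in strand balance was not computed. The next 4 genes were lower in brain. They were Pth2r (a parathyroid hormone receptor), Map2k4 (a kinase of the JNK pathway), Tnrc6a (a partner of Argonaute in microRNA silencing) and Msh3 (a mismatch repair protein). Their differences lay between -1.58 and -0.87 on the log2 scale, and none passed the test (edgeR adjusted p = 0.812 for each). For Pth2r the difference of -1.58 had an SE of 0.49, so 0 calls do not show that strand balance was equal.

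At the level of genes, brain was compared with the mean of the other tissues. Of 41370 genes tested, 0 passed (0%, edgeR quasi-likelihood test, adjusted p under 0.05), and 1781 had an unadjusted p under 0.05 (4.31%). DESeq2 also called 0, with 123 of the 41370 at an unadjusted p under 0.05. This is far fewer than with edgeR, so the 0 calls of DESeq2 add little. Brain against each tissue on its own gave 0 calls in all 5 comparisons, and the share of genes at an unadjusted p under 0.05 was 3.41% for bone marrow, 3.36% for heart, 4.03% for liver, 3.27% for PBMCs and 3.26% for sperm. The 5 comparisons share the brain libraries.

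The depth allowed an upper limit on the difference for well covered genes. For the 678 protein-coding genes with a mean of 100 or more positions, the median log2 difference was 0.034 and the median SE 0.112, and all 678 lay within 2-fold of equality at 2 SE to each side. For the 4024 genes with a mean of 20 to 100 positions the median SE was 0.201, and 98.9% lay within that limit. For the 16277 genes below a mean of 20 it was 0.510, and 25.1% did, so that a 2-fold difference was mostly not detectable there. In simulated data, 50 genes were changed for each size of change and each depth class. Changes of 2-fold were recovered in 94% of genes with a mean of 20 to 100 positions and in 100% of those above. Changes of 1.5-fold were recovered in 22% and 94%, and these classes had 0 and 4 false calls. Since many genes were changed, these shares do not give the chance of calling a lone changed gene. Slain1, with a mean of 21.1 positions and a log2 difference of 0.98, did not pass (edgeR adjusted p = 0.439). Genes over 500 kb differed by -0.35 to 0.30 on the log2 scale, with a median of 0.026.

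**Figure D3:**
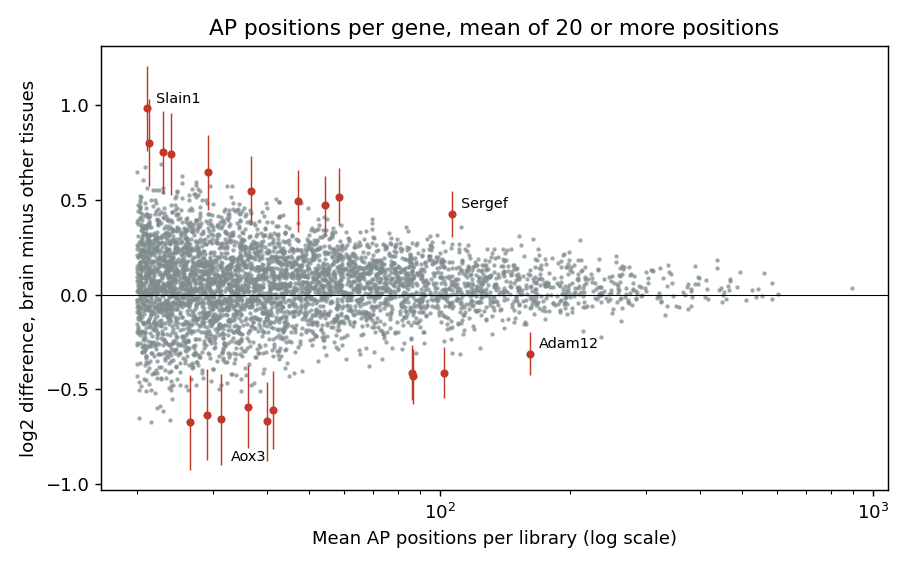
Log2 difference in AP positions between brain and the mean of the other tissues (y axis) against the mean positions per library (x axis, log scale), for the 4702 protein-coding genes with a mean of 20 or more positions. Red points with bars (SE) are the 20 genes of smallest p; Slain1 reached 0.98 with an adjusted p of 0.439 by edgeR.

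The 20 genes described next had the smallest p in each direction among well covered genes. None passed the test, their values were chosen for being extreme, and all edgeR adjusted p values except that of Slain1 rounded to 1. Slain1, which encodes a protein that promotes microtubule growth and lies on chromosome 14 at 103650228-103704907, came first. It held 23 and 48 positions in brain, or 0.548 and 1.23 LPKM (positions per kb of gene and per 1000000 positions of the library). In the other libraries the lowest, median and highest LPKM were 0.333, 0.463 and 0.528. The first brain library thus lay just above the others and the second far above. The log2 difference was 0.98 (SE 0.22, edgeR adjusted p = 0.439). Without the first brain library Slain1 was called (log2 difference 1.49, edgeR adjusted p = 0.00241), and this call rests on the other brain library alone. In that library the positions were spread over the gene, with 16, 10, 13 and 9 in 4 consecutive parts of equal length, and 25 lay on the plus and 23 on the minus strand. SSBs of the same sample had an LPKM of 0.740 in Slain1, inside the range of the 10 other SSB libraries from 0.0656 to 1.09.

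Among the other genes with values higher in brain, Rasgrf1, an exchange factor that activates Ras in neurons, held 81 and 70 positions in brain, or 0.899 and 0.836 LPKM against at most 0.702 elsewhere. Its log2 difference was 0.52 (SE 0.15). Synpo, an actin-binding protein of dendritic spines, held 63 and 59 positions, at least 1.24 LPKM in each library against at most 1.18 elsewhere. Cspg4, the NG2 proteoglycan of oligodendrocyte precursors, held 50 and 33 positions, or 1.87 and 1.33 LPKM, and overlapped the range of 0.709 to 1.69 in the others. The remaining genes were Sergef, Nfic (a transcription factor of the nuclear factor I family), Nisch (nischarin), Lrmp, Gramd4 and Elovl5 (an elongase of polyunsaturated fatty acids), with log2 differences of 0.43 to 0.80. Sergef had most positions, 130 and 135 in brain.

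Among genes with values lower in brain, Aox3, an aldehyde oxidase, held 32 and 20 positions, or 0.468 and 0.315 LPKM, and the other libraries 0.512 to 0.803. Its log2 difference was -0.67 (SE 0.21). Rab3c, a small GTPase of synaptic vesicles, held 65 and 68 positions, or 0.374 and 0.421 LPKM against 0.478 to 0.598. Adam12, a metalloprotease, had most positions, 145 and 118, with a log2 difference of -0.31 (SE 0.11). The others were Ebf2, Dock10, Antxr2, Tpcn1 (an endolysosomal ion channel), Mdga1 (a synaptic adhesion regulator), Kansl1 and Hmgcll1. Both brain libraries lay above all others for 7 of the 10 higher genes and below all others for 8 of the 10 lower ones. Among all 4702 well covered genes this held for 1.49% and 0.915%, and since the 20 genes were chosen by the same values, nothing is read from these counts.

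**Figure D4:**
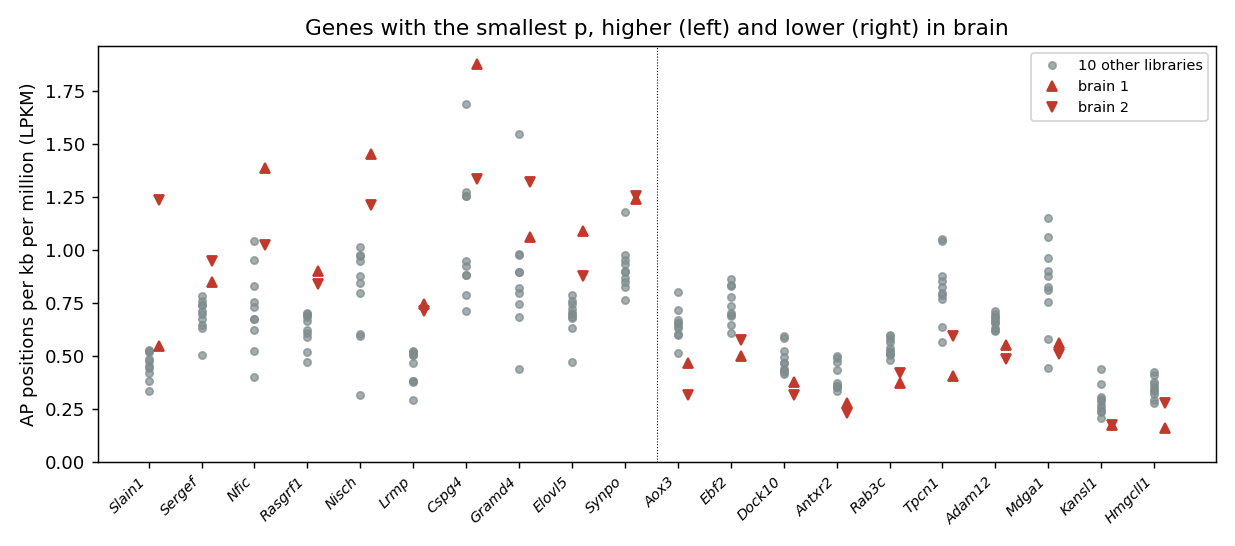
AP density (LPKM, y axis) in each library for the 10 genes of smallest p higher in brain (left) and the 10 lower in brain (right). Red triangles are the brain libraries and grey points the 10 others; none of the 20 genes passed the test, and in Slain1 the brain libraries were at 0.548 and 1.23.

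Among protein-coding genes with a mean of at least 20 positions, those with the highest density in brain were also dense in the other tissues. Sfi1, which encodes a centrosomal protein, held 922 and 864 brain positions, 16.9 LPKM on average, against a range of 14.3 to 19.5 in the others (log2 difference 0.03, SE 0.08). It was followed by LOC100504180 and Duxf3 of the Dux array on chromosome 10, with 13.5 and 8.42 LPKM. On chromosome 1 stood Mroh2a, Hjurp (a chaperone of the centromeric histone CENP-A), Ugt1a1 and Ugt1a2 (enzymes that glucuronidate bilirubin and other compounds), and C130026I21Rik, Sp110 and Sp140, all between 2.97 and 6.02 LPKM. These loci have near-identical copies or overlap one another, so their counts are uncertain. The brain range overlapped that of the other libraries for all 10. The median LPKM in brain was 0.593 in genes with a mean of 100 or more positions.

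Both brain libraries listed 1889 nucleotides in common on the same strand, 0.265% of the smaller library. Of these, 1654 were in no other AP library and 10 were in all 10. The Sfi1 span held 63 of the shared nucleotides. The 100 kb window on chromosome 17 from 39800001, which holds the ribosomal RNA gene Rn18s-rs5, had 26, and the window on chromosome 15 from 75000001, which holds the surface antigen gene Ly6c1, had 22. The rate of sharing within brain lay inside the range between brain and other tissues. Scaled to the product of both depths, the number was 3457 per 1e+12 pairs of positions within brain and 3043 to 4389 between a brain and another library.

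Profiles over 100 kb windows of the autosomes, at equal depth, were compared between libraries. Spearman's rho across windows, which are not independent, was 0.846 between the brain libraries and 0.793 to 0.859 between brain and other libraries, which share the same genome sequence. On average bone marrow libraries were most like brain (0.852) and liver libraries least (0.822), but single liver values ran from 0.793 to 0.853. In windows of 1 Mb, PBMCs (0.9716) and bone marrow (0.9714) were nearly equal, and liver was again lowest (0.958). The order of tissues was not tested. None of 26003 windows of 100 kb was called (0%, edgeR), and 1119 had an unadjusted p under 0.05 (4.30%). DESeq2 called 0 as well, with 120 of the 26003 at an unadjusted p under 0.05, again far fewer than with edgeR. The window of smallest p higher in brain, at 65300001-65400000 on chromosome 3, overlaps Kcnab1, a subunit of voltage-gated potassium channels, and Ssr3. It held 52 and 50 positions in brain and at most 48 elsewhere (log2 difference 0.67, SE 0.18, edgeR adjusted p = 0.873). The next overlaps Adgrb3, a synaptic adhesion receptor, with 33 positions in each brain library and 11 to 28 elsewhere (log2 difference 0.82, SE 0.22, edgeR adjusted p = 0.873). Scaled to depth, the ranges overlapped in this window. The window of smallest p lower in brain, at 76400001-76500000 on chromosome 16, holds no protein-coding gene and had 25 and 23 positions in brain against 28 to 60 (log2 difference -0.80, SE 0.21, edgeR adjusted p = 0.873).

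Gene lists that mark the cells of the brain were examined as groups, over the summed spans of their members. All 15 lists were matched in full, and 0 genes of any list passed the test. The 51 neuronal adhesion and synapse organisers, among them the long genes Lsamp (604 and 600 brain positions), Csmd1 (602 and 536) and Nrxn3 (526 and 561), held 10963 and 10638 brain positions. This is 0.360 and 0.376 LPKM, within the 0.340 to 0.408 of the other libraries. The median log2 difference of the list was 0.05, against 0.10 over all genes tested, which mostly held few positions (median 3.75 per library). For its 46 members with a mean of 20 or more positions the median was 0.041. Protein-coding genes of like depth had medians of 0.034 (mean of 100 or more positions) and 0.058 (20 to 100). Of its 51 members 2 had an unadjusted p under 0.05, higher in brain, and 0 lower, beside 4.31% of all genes tested in either direction. Such genes numbered 2 of 10 astrocyte markers and 2 of 12 oligodendrocyte markers, all higher in brain. Of 25 base excision repair genes 3 were higher and 1 was lower. Each remaining list had at most 1, and the counts were not tested. Glutamate receptors (0.402 and 0.397 LPKM in brain), GABA-A receptor subunits (0.297 and 0.308), neuronal sodium and calcium channels (0.620 and 0.628) and synaptic vesicle release genes (0.471 and 0.465) also lay within the range of the others. Their medians were between 0.03 and 0.06 on the log2 scale.

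Markers of neurons such as Rbfox3, the antigen NeuN, with 310 and 251 brain positions, had 0.634 and 0.622 LPKM in brain and 0.580 to 0.690 elsewhere. Astrocyte markers, led by the glutamate transporter genes Slc1a2 (98 and 79 positions) and Slc1a3 (35 and 46), had 0.859 and 0.862 LPKM in brain against 0.710 to 0.863. With 5 kb added to each side of the genes, both brain libraries lay above all others for this list. Of the other lists, only the liver genes (brain below) and the sperm genes (brain above) were without overlap at this setting. Without the added 5 kb the astrocyte list overlapped. No test was made at either setting, and no share without overlap was computed for summed lists. Oligodendrocyte markers had 0.873 and 0.992 LPKM against 0.692 to 0.895, with Mbp (myelin basic protein) at 88 and 81 positions. Cnp, a myelin enzyme, held 18 and 21 brain positions with a log2 difference of 0.83 (SE 0.30) and did not pass the test. Microglia markers rested on 111 and 70 positions and had 0.901 and 0.612 LPKM, the first above and the second inside the range of 0.537 to 0.878 in the others. Immediate early genes (0.655 and 0.671 LPKM) and base excision repair genes (0.584 and 0.558) overlapped the others.

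Lists for other tissues gave 2 groups without overlap. Over their summed spans, the 22 liver genes had 0.616 and 0.637 LPKM in brain, below the 0.655 to 0.762 of all other libraries, on 234 and 225 positions. The 3 liver genes with most brain positions did not all go this way. Their log2 differences were 0.08 for Hnf4a, -0.27 for Cps1 and 0.25 for Apob. Sperm genes had 0.355 and 0.361 LPKM in brain against 0.314 to 0.354, on 479 and 452 positions. Spag16 alone held 184 and 201 of these, at 0.267 and 0.314 LPKM, inside the 0.217 to 0.324 of the other libraries. The liver and sperm genes are 2 of 15 lists, and no test was made. Single well covered genes were without overlap in 1.49% (above) and 0.915% (below) of cases. That share is for single genes, and none was computed for summed lists. Heart genes and blood cell genes overlapped.

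**Figure D5:**
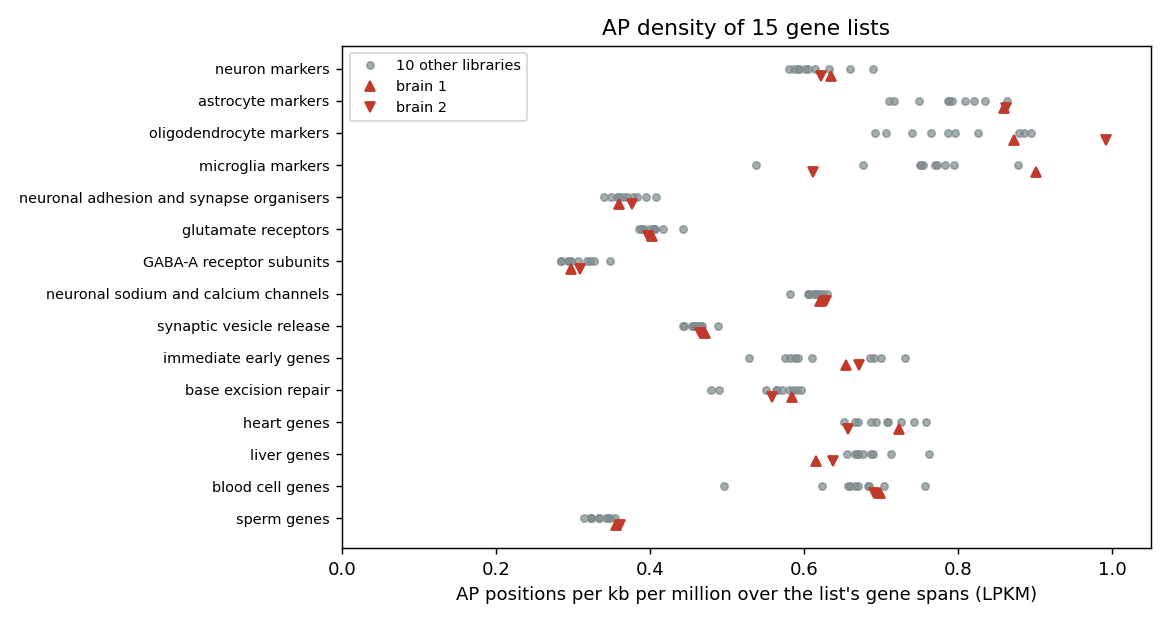
AP density (LPKM, x axis) over the summed gene spans of 15 gene lists (y axis), one point per library. Red triangles are the brain libraries and grey points the 10 others; the brain libraries lie outside the grey points in both replicates for liver genes (0.616 and 0.637) and for sperm genes (0.355 and 0.361).

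SSBs of the same brain samples were distributed otherwise by chromosome. Of 41 shares computed alike for both assays, both brain SSB libraries lay outside the range of the 10 other SSB libraries for 8, all of them chromosomes, whereas AP libraries did so for 0. Brain SSBs were more frequent on chromosome 8, with 5.63% and 5.61% against 5.30% to 5.51% in the other tissues, and on chromosomes 3, 10 and 14. They were less frequent on chromosome 9, with 5.07% and 5.05% against 5.34% to 5.57%, and on chromosomes 7, 11 and 19. For AP sites the brain shares of chromosome 9 were 5.41% and 5.36%, against 5.29% to 5.48%, and those of chromosome 8 were 5.53% and 5.52%, near the top of the range of 5.40% to 5.54% in the others. Promoter windows held 1.07% and 0.985% of brain SSBs, beside 0.763% and 0.749% of brain AP sites. The difference between the assays was not tested.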

How the data were processed

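The members, gene lists and tests were chosen with earlier results of these data known. The authors deposited, for each library, a list of single nucleotides, each with its strand and an unnormalized count, with replicates kept apart. Per the labels the build was GRCm38 (mm10), and the aligner and filters for these lists are not given in the sources used here. Each position was counted once for genes (49939 RefSeq genes of GRCm38.p6, whole spans, either strand) and for windows of 100 kb. LPKM was positions per kb of gene and per 1000000 positions of the library. Exons were not used here. Gene strand and promoter sequence came from the RefSeq promoter table, which gave the strand of 17491 of 21883 protein-coding genes and holds no chromosome 18.

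Genes or windows with a position in at least 20% of the libraries were tested with edgeR 4.0.16 (quasi-likelihood, TMM, total positions as library size, brain against the mean of the other 5 tissues, Benjamini-Hochberg, threshold 0.05) in R 4.3.3. Strand balance used own and opposite strand counts with a term per library. Single values were compared with two-sided exact permutation tests over 66 choices, adjusted over 49 values, in Python 3.11.15. Spacing values were taken at 460719 positions per library. DESeq2 1.42.0, limma 3.58.1 on log2(LPKM + 1) and the settings in the closing section were alternatives. The tests were tested on simulated data. Where separate animals are not stated for the numbers, p-values measure only the spread between these libraries. Depth was 460719 to 963258 positions in AP libraries, with errors given as the spread between libraries.

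Genes named were all those called or, failing that, the 10 protein-coding genes of smallest p in each direction with a mean of at least 20 positions, the 10 of highest mean LPKM in brain, and 3 members of each list with most brain positions; windows were the 5 of smallest p in each direction, and strand balance the 5 of smallest p, of which the text gives values for some. Of the nucleotides shared by both brain libraries in promoter windows, 1 is not reported here. The genes of the other 8 and of the 3 promoter windows, Ly6c1 and Rn18s-rs5 were named after their values were seen.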

Additional observations from a re-analysis of the deposited data

How the results depend on the processing

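No gene or window was called with edgeR under the other normalizations and filters, summed counts, thinning, the 10 other libraries as 1 group, autosomes only or without any 1 of the other 5 tissues. Strand balance gave 0 calls at a mean of at least 10 positions, without sperm, without each brain library and in genes that overlap no other. The exceptions to 0 calls were limma on log2(LPKM + 1), which called 8 genes, all of at most 945 bp with 1 or 2 positions in each brain library, and the fit without brain replicate 1, which called 1 gene (Slain1) and 1 window, that of chromosome 14 from 103600001 at Slain1. Leaving out 1 library gave 0 to 1 genes and 0 to 1 windows. Of 49 single values, 512 values under 18 settings gave 0 calls, and 57 changed sign. These 0 calls say little about robustness. With a smallest possible exact permutation p of 0.0152, a single value alone could not pass the adjustment, and without a brain library no call was possible. The 20 named genes changed sign in 0 of 560 fits. They were chosen for the smallest p in these libraries, and the fits reuse most of the same libraries. A kept sign was therefore likely in advance, and nothing is read from it. The 10 genes of highest LPKM in brain changed sign in 41 of 280 fits.

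The replicate block gave 0 calls for genes, windows, strand balance and each pair of tissues. It changed no single value's call, where the smallest possible exact permutation p was 0.0278 and a single value alone could not pass. Deviations of equal numbers correlated between -0.618 and 0.450 over 15 pairs of tissues (brain -0.275 to 0.289). Equal numbers did not deviate together throughout, so they were not used as pairs, and whether they mark the same mouse is not given. The depth limits differences in genes below a mean of 20 positions, and 2 brain libraries limit single values. The second thinning draw, strand shares at equal weight and the lists without 1 brain library were chosen after seeing the data. The microglia list moved, from a brain to other ratio of 1.01 to 0.819 without brain replicate 1 and 1.21 without brain replicate 2.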
